A study of Mus musculus with 4 samples.

Results

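The genes that copy DNA were followed in classical monocytes of young and old mice. The group was a list of 40 genes given by symbol, and all 40 were found among the 27998 genes of both count matrices. A dividing cell copies its genome in S phase. Loading factors place the Mcm helicase on the DNA, a kinase and the Cdc45 and GINS proteins start it, a primase and the replicative polymerases make the new strands on a sliding clamp, and nuclease and ligase join the pieces. These genes are switched on together shortly before S phase by E2F transcription factors, and bone marrow monocytes include young cells that still divide before they leave for the blood.

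The cells were Ly6Chi monocytes sorted from bone marrow as Ly6G- CD11b+ CD115+ Ly6Chi cells of WT C57BL/6 mice. There were 5 young and 5 old mice of each sex, young males at 14 weeks and old males at 27 months, young females at 15 weeks and old females at 26.5 months. Each mouse was marked with its own hashtag antibody, and the mice of a sex were pooled into 1 library, so sex and experiment cannot be told apart and no level was compared between the pools. Counts were unique molecular identifiers (UMIs), that is, distinct RNA molecules caught at their 3′ end.

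After filtering, 7624 female and 1226 male cells were kept, with 245 to 1850 cells and 2861770 to 21921971 UMIs per female mouse and 49 to 206 cells and 330586 to 1108320 UMIs per male mouse. The 2 pools shared 0 barcode sequences. Cells of old mice were deeper. The median cell held 10100 to 15274 UMIs in the old females and 8398 to 9423 in the young ones. In males the medians were 4489.5 to 8844 (old) and 3805.5 to 4455.5 (young), and the groups did not overlap in either sex. The 7 monocyte genes were all detected in both pools and summed to 15971 to 36104 CPM (counts per 1000000 counts of the mouse) in every mouse. Most of that sum was Lyz2, with 2306584 UMIs in the female and 181561 in the male cells. Ly6c2, the next of the 7, had 243254 and 17597. The sum was mostly lower in old mice, at 22730 to 29028 in old and 28091 to 30005 in young females, and at 15971 to 32621 in old and 33220 to 36104 in young males. The groups overlapped in females and not in males. Old male 4 stood apart, with 49 cells, the highest median depth and the lowest monocyte gene sum of the males. Its 5 neutrophil genes (Camp, Ngp, Ltf, Ly6g and Retnlg) summed to 4357 CPM, against 17.1 to 1645 in the other old males and 11.5 to 3897 in young males. In females the same 5 genes were at 8.71 to 209 CPM in old and 119 to 1132 in young mice. Old male 4 is therefore left out in turn beside the male results.

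The share of cells in which the replication genes were detected together depended on the depth and the limit chosen. To set aside depth, each cell was thinned to 2000 UMIs at random, which left out 31 female and 58 male cells that were shallower. Of 40 genes, the cells then showed 0 to 20 in females and 0 to 17 in males. No gene was seen in 17.2% of female and 20.4% of male cells, and 3 or more genes were seen in 3439 of 7593 female cells (45.3%) and in 476 of 1168 male cells (40.8%). The distribution had a long tail rather than a second peak in females, and cells with exactly 2 or exactly 3 genes, on either side of that limit, were 14.7% and 8.14% of female cells and 14.2% and 7.88% of male cells. Female barcodes with an ambiguous hashtag, which had been left out as likely pairs of cells, showed 3 or more genes in 68.5% of 1833 at the same depth. Pairs of cells from 1 mouse cannot be seen by hashtag and were not removed. With cells thinned to 4000 UMIs in place of 2000, 3 or more genes were seen in most cells of every mouse. The share was then 61.2% to 73.3% in the female and 58.7% to 93.6% in the male mice.

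Each gene was detected more often beside the others, in 40 of 40 cases in each pool. The comparison for a gene counted only the other 39, at 2000 UMIs a cell, so that the gene did not choose its own cells. Rrm2, the regulatory subunit of ribonucleotide reductase that makes deoxynucleotides, was seen in 40.2% of female cells with 3 or more of the other genes and in 2.61% of those with 0. In males these shares were 44.3% and 1.65%. Lig1, the ligase that joins Okazaki fragments, stood at 23.1% and 1.36% in females, and Prim1, the catalytic primase subunit, at 13.8% and 0.68%. By mean UMIs the ratio between these cells was 22.6 for Rrm2, 21.8 for Lig1 and 22.1 for Prim1 in females. Cells with 3 or more of the others made up 43.1% to 45.3% of female cells and held 58.4% to 95.8% of a gene's UMIs (median 85.6%). In males they made up 38.2% to 40.8% of cells and held 56.6% to 97.4% (median 85.9%).

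A few clamp loader genes were spread more widely. Rfc1 and Rfc2, subunits of the complex that opens the Pcna ring, were seen in 10.8% and 16.9% of female cells without any other member, against 15.4% and 32.8% of those with 3 or more. In females these were the 2 genes of 40 that were seen less than 2 times as often beside the others. In males Rfc2 was the single such gene, at 14.4% and 26.5%. Slbp, the protein that binds the stem-loop of histone mRNA, was also common outside the group, at 11.3% of female and 17.6% of male cells without another member. No cell type in the sort was known to lack these genes, so a share set by free RNA could not be read off. Among female cells with 2 or more markers of another type, the share with 3 or more members was 27.5% of 40 for erythroid markers (exact 95% interval 14.6% to 43.9%, for counting error only), 47.3% of 93 for T or NK cells, 60.5% of 43 for plasmacytoid DCs, 67.1% of 82 for conventional DCs and 67.2% of 58 for neutrophils. B cell markers marked 12 cells and basophil markers 2. The markers were counted before thinning. Median depth was 8319 UMIs in the erythroid-marked cells, 15097 to 15809 in the other types with a share given, and 10305 in all female cells. Of the plasmacytoid DC markers, Bst2 had 21518 UMIs in the female cells and Siglech 152. The parts of depth and of widespread markers in these shares were not tested.

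**Figure D1:**
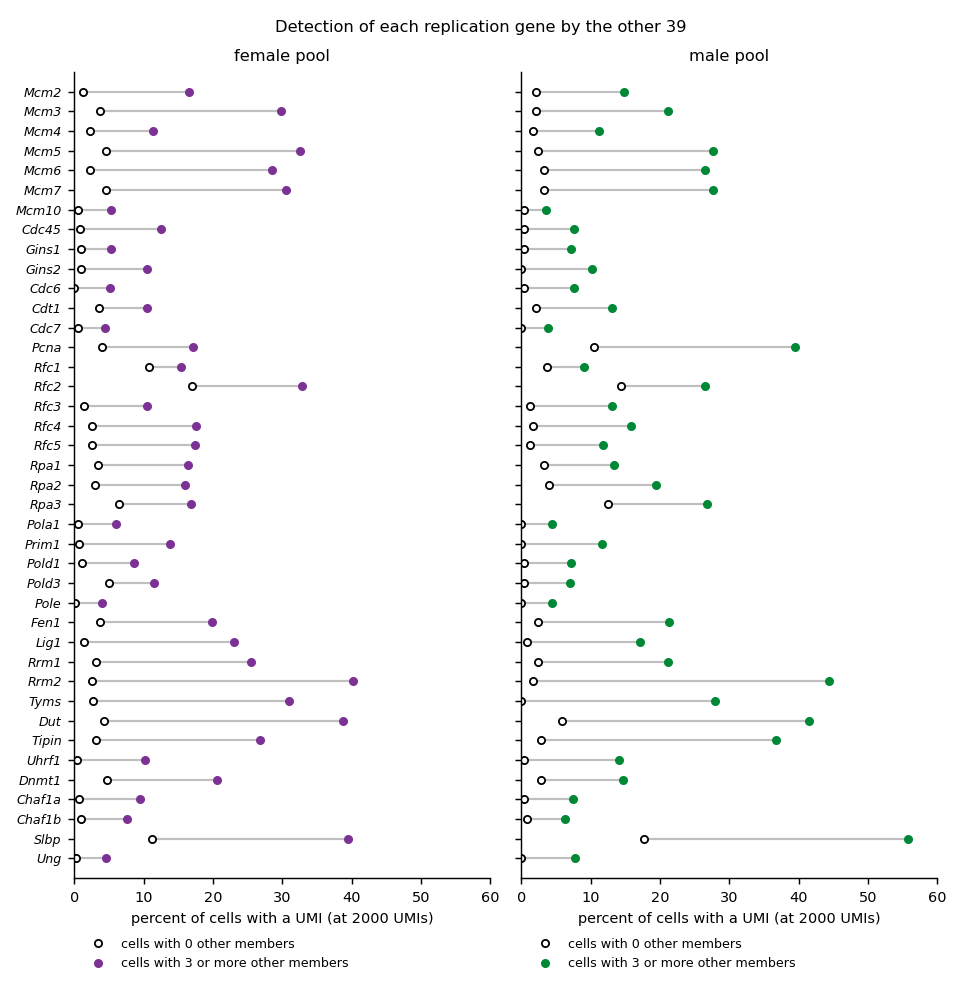
Percent of cells with at least 1 UMI of each replication gene, at 2000 UMIs per cell, in cells with 0 (open circles) and with 3 or more (filled circles) of the other 39 genes, for the female and the male pool. Every filled circle lies to the right of its open circle, with ratios under 2 at Rfc1 and Rfc2 in the female and at Rfc2 in the male pool.

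The promoters of the group were searched for the E2F site because the genes were detected together. Promoter sequence (RefSeq, GRCm38.p6, 250 bases before to 50 after the start) was at hand for 34 of the 40 genes. The 8-letter spellings TTTCCCGC, TTTCGCGC, TTTGCCGC and TTTGGCGC, on either strand, were in the promoters of 13 of 34 members (38.2%), against 2.61% of 27025 genes with a promoter. They were also in 12 of 37 other replication genes (32.4%) and in 1 of 17 mitosis genes (5.88%). The 7-letter core, which is each spelling without its first T and so lies within the longer one, was in 24 of 34 members (70.6%), against 10.9% of all genes. CCAAT, on either strand, was in 21 of 34 members (61.8%), in 15 of 17 mitosis genes (88.2%) and in 41.1% of all genes. A match describes the letters and does not show that a factor binds there.

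Of the 13 genes, 8 had an 8-letter match before a start and 5 (Mcm3, Lig1, Pold1, Pold3 and Cdt1) only in the 50 bases after it. Some genes had more than 1 promoter window, each at its own start, and a match in any 1 of them counted. The match shown for Uhrf1 lies in its window 2 and that for Dnmt1 in its window 3, and window 1 of each had 0 matches. The 8 genes with a match before a start are shown, on the strand of the gene with the matches in capitals. In Rfc3 the first match lies before the start and the second just after it. In Mcm5 and in Mcm6, both subunits of the helicase ring, 2 spellings on opposite strands overlapped.
Mcm5, chr8:75109309-75109428, plus strand: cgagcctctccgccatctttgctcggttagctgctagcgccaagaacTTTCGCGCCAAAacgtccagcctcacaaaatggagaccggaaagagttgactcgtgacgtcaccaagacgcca
Mcm6, chr1:128359716-128359835, minus strand: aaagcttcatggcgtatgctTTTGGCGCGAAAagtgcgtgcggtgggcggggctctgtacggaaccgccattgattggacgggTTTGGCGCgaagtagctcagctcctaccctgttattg
Mcm7, chr5:138172030-138172059, minus strand: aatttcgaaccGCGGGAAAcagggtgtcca
Cdc6, chr11:98908002-98908031, plus strand: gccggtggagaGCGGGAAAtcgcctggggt
Rfc3, chr5:151651200-151651229, minus strand: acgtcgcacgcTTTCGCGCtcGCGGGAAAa
Pola1, chrX:93632275-93632304, minus strand: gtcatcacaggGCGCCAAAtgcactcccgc
Uhrf1, chr17:56304117-56304146, plus strand: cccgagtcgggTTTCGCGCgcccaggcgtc
Dnmt1, chr9:20952824-20952853, minus strand: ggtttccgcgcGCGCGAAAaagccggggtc

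Many cells with replication genes also held RNA of mitosis genes. Of 20 mitosis genes such as Mki67, Top2a and Ccnb1, 3 or more were seen in 9.49% of female cells with 0 replication genes, in 48.5% with 3, in 81.0% with 6 and in 49.1% with 14. In males the share was 5.46% with 0, 66.7% with 6 and 21.4% with 12 replication genes (28 cells). The mitosis genes were thus most frequent at intermediate numbers of replication genes in both pools. In all, 2249 female cells had 3 or more of both groups, 1190 had 3 or more replication genes with under 3 mitosis genes, 627 had the mitosis genes alone and 3527 had neither. The male counts were 208, 268, 74 and 618. Cells with both were the deepest before thinning, at a median of 18516 UMIs in females and 8044 in males, against 7658 and 3860 for cells with neither.

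**Figure D2:**
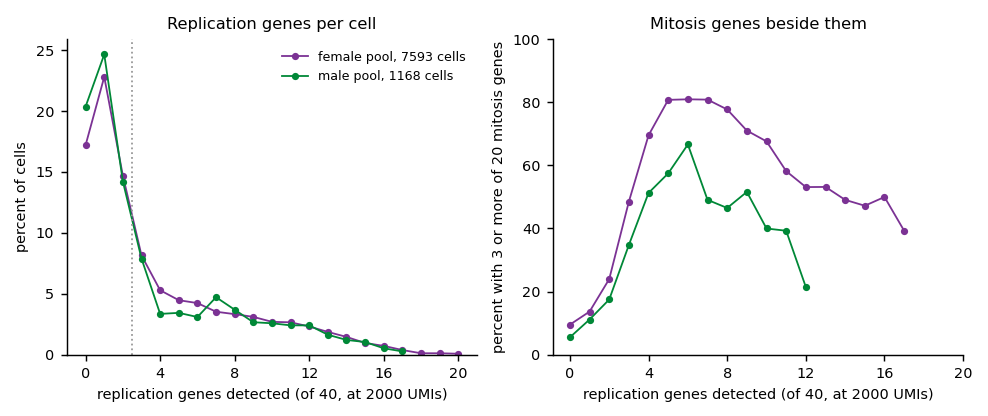
Left, percent of cells by the number of replication genes detected of 40 at 2000 UMIs, with the limit of 3 genes as a dotted line. Right, percent of those cells with 3 or more of 20 mitosis genes, for numbers reached by at least 20 cells. The female curve peaks at 81.0% at 6 genes and the male curve at 66.7% at 6 genes.

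The members differed in whether their RNA went with the mitosis genes. Among female cells with 3 or more other members, 7 genes were lower per UMI in cells with mitosis genes in all 10 mice, namely Mcm2, Mcm3, Mcm6, Cdc6, Cdt1, Uhrf1 and Ung. The mean log2 ratio over mice was -1.94 ± 0.79 (SD, n = 10 mice) for Ung, the uracil glycosylase, and -1.19 ± 0.67 for Cdc6 and -1.11 ± 0.48 for Cdt1, the 2 factors that load the helicase in G1. It was -0.74 ± 0.23 for Mcm6. Rpa3, Rrm1 and Tyms were higher in all 10 mice, by 0.61 ± 0.20 for the single-strand binding subunit Rpa3, 0.95 ± 0.36 for the large ribonucleotide reductase subunit Rrm1 and 0.64 ± 0.38 for the thymidylate synthase Tyms. Rrm2 was at 0.77 ± 0.59 and was higher in 9 of 10 mice. In males, where counts were few, all 7 of the first genes were below 0 with the cells of all mice pooled, but in single mice Mcm6 and Cdt1 (pooled at -0.10 and -0.11) were higher in 4 of 10 and Mcm3, Cdc6 and Uhrf1 in 3 of 10. With cells pooled, 2 of the other 3 were above 0 (Rrm1 at 0.33 and Tyms at 0.53), with Rpa3 at -0.12. These 10 genes were named for this pattern after it was seen, so the values are a description.

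Cells with 3 or more replication genes were richer in RNA of granule proteins of early myeloid cells. Of 3697 other genes with at least 200 UMIs in each pool, the 10 with the highest mean log2 ratio of CPM over the other cells included Ccne2, Hells, Cdca7, Dtl, Elane, Fignl1, Ms4a3 and Tk1. Ccne2 encodes the S phase cyclin E2, and its log2 ratio was 4.87 ± 0.98 (SD over 10 mice) in females and 4.35 ± 0.99 in males. Tk1 serves nucleotide synthesis, and Fignl1 serves recombination. Elane, the neutrophil elastase gene, was at 3402 CPM in these female cells and 435 in the others, a log2 ratio of 3.08 ± 0.66 that was above 0 in 10 of 10 mice, and at 3.48 ± 0.86 in males.

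Of the progenitor list, 6 of 7 genes were higher in each pool, with median log2 ratios of 2.70 in females and 2.72 in males. Its markers were widespread, with 2 or more of them in 6313 of 7593 female and 618 of 1168 male cells before thinning. Elane, Prtn3, Mpo and Ctsg had 75167 to 268204 UMIs each in the female cells. Kit had 141 female and 13 male UMIs, and was above 0 in 10 of 10 female and 6 of 10 male mice. Whether the cells with 3 or more members were progenitors was not tested. Mpo, the myeloperoxidase gene, was at 3.15 ± 0.74 in females, while Flt3 was at -0.94 ± 0.32. Of 7 monocyte genes 6 were lower in each pool, with medians of -1.22 in both. Csf1r was at -1.13 ± 0.09, Ccr2, the receptor for marrow exit, at -1.26 ± 0.12 and Itgam, which encodes CD11b, at -1.57 ± 0.19 in females, each below 0 in 10 of 10 mice. Ly6c2 was at 0.16 ± 0.12. No test was made of these ratios, since the cells were chosen by RNA. They compare shares of all UMIs, and cells with 3 or more members were deeper before thinning. Their median was 16978 against 7944 UMIs in females and 7620 against 3938 in males. RNA of these genes per cell was not compared. Other cell types were few, with 316 female and 58 male cells holding 2 or more markers of any 1 of them. Prss34 and Fcer1a (basophils) were at 0 UMIs in the female cells, and Ncr1 (NK cells) and Ms4a1 and Vpreb3 (B cells) were at 0 in the male cells. Other markers of these types were present. In the male cells Prss34 had 497, Mcpt8 397, Nkg7 356 and Cd79b 123 UMIs. The T or NK genes Klrd1, Cd3d and Cd3e had 19, 2 and 1. Nkg7 was the 1 of 5 T or NK genes that was higher in cells with 3 or more members. It was at 2.41 ± 1.04 in females and 2.36 ± 1.12 in males, above 0 in 10 of 10 mice of each, and which cells held it was not tested. The basophil genes summed to 30.5 to 568 CPM in old and 23.0 to 477 in young males. By the mean over mice, the neutrophil list was higher in 4 of 5 genes in females (median 0.71) and in 3 of 5 in males (median 1.94). The mice disagreed, as single genes were above 0 in 2 to 6 of 10 females and 3 to 7 of 10 males. Camp was at 0.83 ± 3.03 in females and 4.37 ± 4.39 in males. The part of such cells in the RNA results was not tested beyond leaving them out.

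Surface antibodies had been counted in the female pool and took no part in choosing the cells. Per cell, CD11b was lower in cells with 3 or more replication genes in 10 of 10 mice, at 38.1 ± 1.53 against 61.5 ± 6.91 counts (mean ± SD over mice), a log2 ratio of -0.69 ± 0.15. CD115, the protein of Csf1r, was higher in 10 of 10 mice, at 6.84 ± 1.58 against 4.64 ± 0.96 counts (log2 ratio 0.56 ± 0.16). Ly6C was also higher in 10 of 10, at 589.8 ± 42.3 against 509 ± 47.1 (0.21 ± 0.07). For each of these 3 the exact sign-flip permutation test over 10 mice gave an adjusted p of 0.0039 over 6 antibodies, from the smallest p that 10 mice allow (0.00195). The CD115 antibody count thus lay on the other side of 0 from the share of Csf1r RNA. RNA was measured as a share of all UMIs, while antibodies were counted per cell. Before thinning, the median female cell with 3 or more replication genes held 16978 UMIs, and the median of the others was 7944. The part of this depth in the difference between RNA and antibody was not tested. As a share of the 6 antibodies CD115 was at 0.45 ± 0.22, where Ly6C made up 86.7% and 80.3% of the total in the 2 classes.

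The other antibodies were lower in most mice. Flt3 was lower in 9 of 10 mice (log2 ratio -0.20 ± 0.15, adjusted p = 0.0117, exact sign-flip test), CD11c in 9 of 10 (-0.31 ± 0.35, adjusted p = 0.0141, exact sign-flip test) and MHC-II in 8 of 10 (-0.54 ± 0.72, adjusted p = 0.0215, exact sign-flip test). Counts per cell were low for Flt3 (2.63 ± 2.08 against 3.13 ± 2.67, mean ± SD over mice) and CD11c (2.98 ± 1.32 against 3.81 ± 1.95). MHC-II ranged from -2.24 in old female 2 to 0.30 in old female 1. With cells classed before thinning these 3 no longer passed 0.05 and CD11c was at 0.14. Without thinning 84.5% to 94.5% of the cells of each mouse fell in the class, so its make-up changed along with depth. The cells had been sorted with antibodies to CD11b, CD115 and Ly6C, which bounds all 3 levels.

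**Figure D3:**
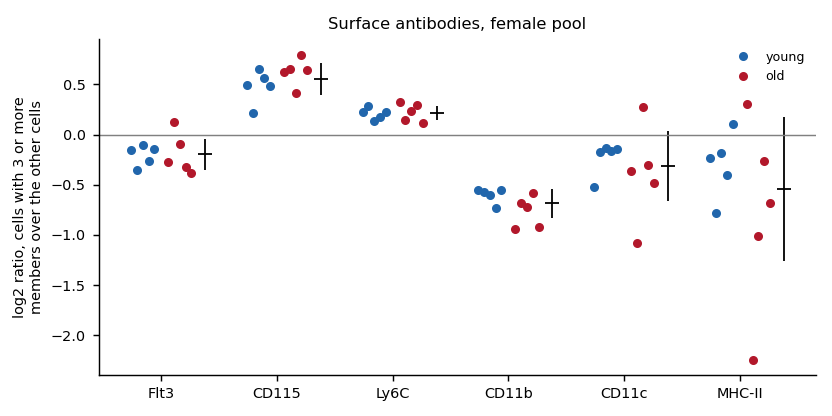
Log2 ratio of the mean antibody count per cell in cells with 3 or more replication genes over the other cells, for each of 10 female mice (blue young, red old), with the mean ± SD over mice in black. CD115 and Ly6C lie above 0 and CD11b below 0 in all 10 mice, while MHC-II spreads from -2.24 to 0.30.

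The effect of age was then tested on UMIs summed per mouse (edgeR quasi-likelihood test, adjusted over all genes). In females, 36 of 40 members were higher in old mice, by a median of 0.11 on the log2 scale, against -0.0044 over all 10386 genes tested. Of all genes 48.7% were higher. With the other scalings tried, 35 or 36 were higher. No member passed an adjusted p of 0.05 in either direction, where 2.4% of all genes were called higher and 2.32% lower. At an unadjusted p under 0.05, 9 of 40 members were higher (Cdc45, Dut, Mcm3, Pcna, Pola1, Rfc4, Rrm1, Rrm2 and Tyms), against 10.1% of all genes, and DESeq2 called 1 member (Rrm2). In 0 of 40 members did every old mouse exceed every young mouse, as 3.58% of all genes did. The count of 9 was 21 without old mouse 3, 14 without old mouse 4, 5 without young mouse 5 and 3 without either old mouse 2 or old mouse 5, and the median was 0.06 without old mouse 5. The shares of all genes in these fits and in DESeq2 are not given here, so these counts cannot be set against them. The lower sum of monocyte genes in old mice, which is mostly Lyz2, moved with these differences, and its part in them was not tested. In bulk sums, more cells with these RNAs and more RNA per cell cannot be told apart.

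Rrm2, of the nucleotide supply, had the lowest adjusted p of the members in females, and Pcna the next. Levels below are TMM-normalised CPM and run from mouse 1 to mouse 5. Rrm2 (chr12:24708241-24714146, 22397 female UMIs) was at 257, 251, 214, 227 and 269 in old and 207, 224, 222, 215 and 188 in young females. Old mouse 3 lay within the young range and the other 4 lay above it, mouse 4 narrowly. The log2 difference was 0.21 ± 0.06 (SE), with an adjusted p of 0.0768. Tyms (chr5:30058202-30073617) was at 169, 166, 145, 152 and 166 in old and 140.3, 151, 157, 144 and 137 in young females, where old mice 3 and 4 lay among the young (0.13 ± 0.05, adjusted p = 0.157). Rrm1 was at 0.17 ± 0.07 and Dut, which removes dUTP, at 0.18 ± 0.07, with adjusted p values of 0.151 and 0.170. All 4 genes of this role were thus at 0.13 to 0.21.

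The helicase genes ranged from -0.03 to 0.24 in females, with 12 of 13 above 0. They comprise Mcm2, Mcm3, Mcm4, Mcm5, Mcm6 and Mcm7 of the ring, Mcm10, Cdc45, Gins1 and Gins2 of the active helicase, Cdc6 and Cdt1 that load it and the kinase gene Cdc7. Mcm5 (chr8:75109569-75128439) was at 164, 163, 138, 154 and 182 CPM in old and 149.6, 163, 147, 159 and 149 in young females. The old mice thus held both the highest and the lowest value, and the log2 difference of 0.06 ± 0.06 did not pass (adjusted p = 0.663). Mcm3 (chr1:20802968-20820312) was at 158, 149, 129, 137 and 156 in old and 138, 138, 114, 137 and 126 in young females (0.15 ± 0.06, adjusted p = 0.204). Of its old mice, 3 lay above all young ones. Cdc6 had the largest log2 difference of the group at 0.24 ± 0.12, with an adjusted p of 0.253.

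Of the clamp and its loader, 5 of 6 genes were above 0 in females, from -0.01 to 0.17. Pcna, the sliding clamp (chr2:132249162-132253314), was at 84.3, 79.9, 66.3, 74.6 and 75.8 CPM in old and 66.2, 66.9, 69.8, 67.0 and 68.7 in young females. Only old mouse 3 fell within the narrow young range, and the log2 difference was 0.17 ± 0.06 (adjusted p = 0.112). Without that mouse both Pcna and Rrm2 passed 0.05 (adjusted p = 0.0188 and 0.0209), and without old mouse 4 Rrm2 did (0.0461). The share of all genes called in these fits is not given here. Rfc2 (chr5:134581366-134601805) was at 163, 164, 154, 156 and 168 in old and 157, 159, 169, 165 and 159 in young females. The groups lay on top of each other, at -0.01 ± 0.04 (adjusted p = 0.972), and the sign changed under several alternatives.

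The remaining roles were mostly above 0 in females as well. Single-strand binding (Rpa1, Rpa2 and Rpa3) was at 0.04 to 0.10, flap removal and ligation (the flap nuclease gene Fen1 and Lig1) at 0.10 to 0.11, the polymerases and primase (Pola1, Prim1, Pold1, Pold3 and Pole) at -0.07 to 0.17 and the genes that copy chromatin and methylation marks (Uhrf1, Dnmt1, Chaf1a, Chaf1b and Slbp) at 0.03 to 0.15. Rpa3 (chr6:8255936-8259173) was at 78.3, 77.0, 71.9, 70.3 and 83.2 in old and 71.8, 74.1, 78.3, 75.8 and 69.7 in young females (adjusted p = 0.711). Prim1 (chr10:128015168-128030037) was at 51.7, 57.5, 45.6, 51.0 and 56.8 in old and 49.0, 51.7, 45.7, 51.6 and 48.6 in young females (adjusted p = 0.574). Old and young values overlapped in both genes. Lig1 (chr7:13277283-13311433) was at 106, 95.5, 89.8, 97.0 and 114 in old and 94.2, 95.5, 93.5, 96.2 and 88.8 in young females (0.10 ± 0.06, adjusted p = 0.370). Tipin, of the fork protection complex (chr9:64281581-64305424), was at 116, 127, 112, 121 and 137 in old and 119.8, 113, 114, 122 and 108 in young females (0.08 ± 0.06, adjusted p = 0.437). For these 2 genes the highest values were in old mice and the rest were mixed. Slbp (chr5:33634952-33652574) was at 205, 196, 186, 194 and 193 in old and 175, 199.6, 192, 195 and 191 in young females (adjusted p = 0.752). Ung (chr5:114130386-114139323) was at 16.3, 17.2, 16.1, 14.9 and 19.1 in old and 22.1, 14.8, 9.57, 17.4 and 18.6 in young females (-0.06 ± 0.13, adjusted p = 0.857). The young mice of Ung lay on both sides of all 5 old mice, on 1687 UMIs in the pool.

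**Figure D4:**
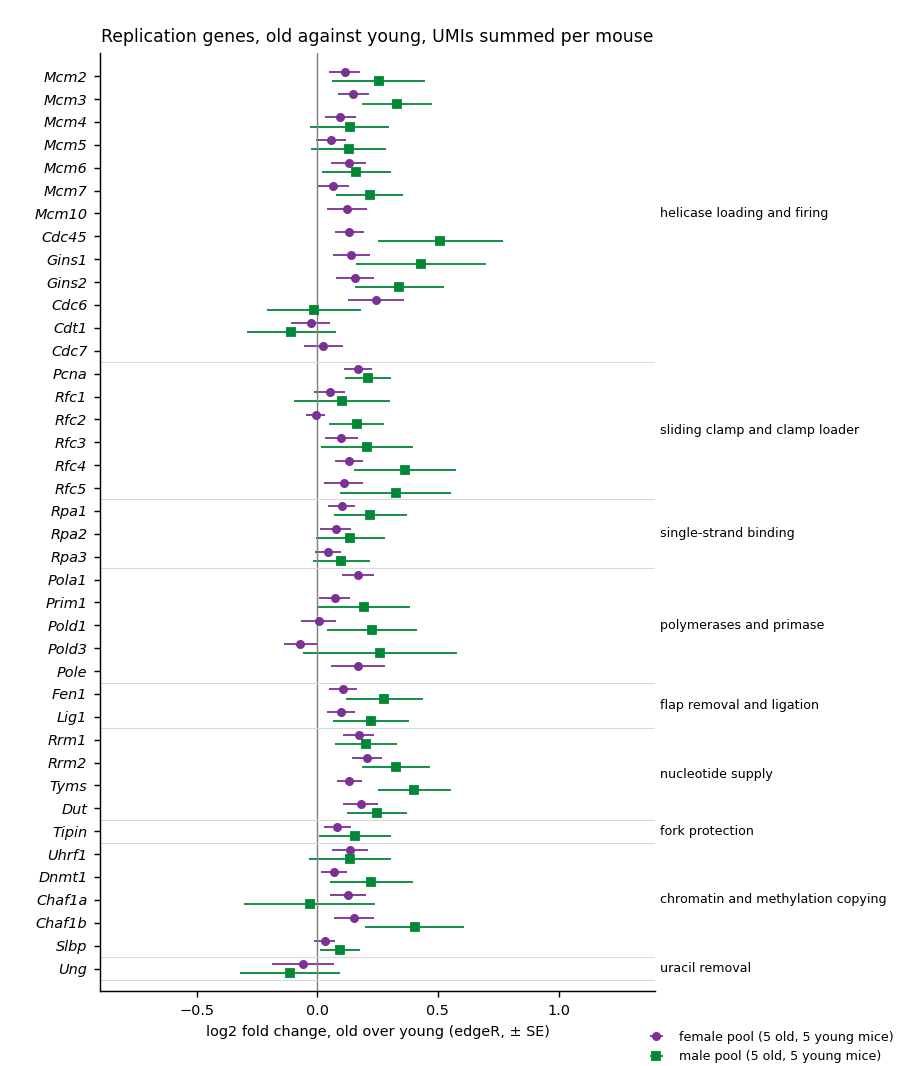
Log2 fold change of each replication gene in old over young mice (edgeR, ± SE), by role, in the female pool (circles) and the male pool (squares, absent for the 4 genes that were not tested). Female values run from -0.07 to 0.24 and male values from -0.11 to 0.51, with most of both to the right of 0 and none past an adjusted p of 0.05.

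In males 36 of 40 members passed the filter on low counts (not Mcm10, Cdc7, Pola1 and Pole), and 32 of these were higher in old mice, by a median log2 difference of 0.21 against 0.01 over 5655 genes. Of those 5655 genes 51.3% were higher. The count of members was also 32 of 36 with both other scalings. The edgeR test called 0 members and 0 genes in either direction (0% of all genes), and DESeq2 called 0 members and 22 genes. At an unadjusted p under 0.05, 4 members were higher (Mcm3, Pcna, Rrm2 and Tyms), against 5.61% of all genes, and all 4 were also among the 9 of the females. Without old mouse 4 the median was 0.16 and 35 of 37 members tested were higher. The count of 4 was 9 without old mouse 2, 2 without old mouse 4 and 1 without young mouse 1 or old mouse 3. The share of all genes is again not given for these fits. No member had every old mouse above every young mouse, as 0.884% of genes did. Every old mouse lay below every young mouse in 0 members and in 70 of 5655 genes. Of 36 members tested in both pools, 30 were higher in both and 2 were lower in both. The shares of all genes higher in both pools, or at an unadjusted p under 0.05 in both, are not given here. The counts of members in both pools therefore cannot be set against them. The members were detected together in the same cells, so their signs are not separate observations.

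Of these 4 genes, Mcm3, Pcna and Tyms are given by mouse because of their values. Rrm2 was at 239, 214, 289, 371 and 209.8 CPM in old and 165, 209, 222, 226 and 237 in young males (0.33 ± 0.14, adjusted p = 0.412). Tyms was at 138, 93.5, 117, 171 and 149 in old and 95.4, 91.8, 89.1, 129.9 and 93.9 in young males (0.40 ± 0.15, adjusted p = 0.329). In both genes old mouse 4 was the highest of the 10 males, and without it the log2 differences were 0.19 for Rrm2 and 0.31 for Tyms. Pcna was at 195, 201, 227, 239.7 and 188 in old and 178, 194, 162, 202 and 174 in young males (0.21 ± 0.09, adjusted p = 0.440). Mcm3 was at 115, 106, 123, 111 and 76.3 in old and 66.2, 93.3, 84.6, 111 and 82.0 in young males (0.33 ± 0.15, adjusted p = 0.425). Old males were mostly above the young ones in these genes, and in each the groups met at 1 mouse or more.

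The other leading genes of each role overlapped between the male groups too. Slbp, with 2113 male UMIs, was at 337, 314, 367, 322 and 312 in old and 268, 319.7, 320.1, 321 and 328 in young males (0.09 ± 0.08, adjusted p = 0.722). Tipin was at 158, 160.0, 206, 262 and 143 in old and 130.1, 155, 172, 182 and 196 in young males (adjusted p = 0.738). Rfc2 was at 144, 129.9, 146, 191 and 149 in old and 125, 159.9, 133, 125 and 129.8 in young males (0.16 ± 0.11, adjusted p = 0.629). Old mouse 4 was again the highest in Tipin and Rfc2, whose log2 differences of 0.16 each were 0.025 and 0.079 without it. Rpa3 was at 124, 105, 153, 151 and 149 in old and 140.2, 129, 127, 119.8 and 109 in young males (adjusted p = 0.803). Mcm5 was at 117, 112, 117, 139.8 and 76.3 in old and 76.3, 88.8, 116, 128 and 119.6 in young males (0.13 ± 0.16, adjusted p = 0.806). Neither gene set the groups apart. Lig1 was at 65.4, 68.1, 82.9, 86.5 and 60.4 in old and 52.7, 57.7, 71.0, 79.3 and 53.0 in young males (0.22 ± 0.16, adjusted p = 0.640). Prim1, with 250 male UMIs, was at 35.9, 39.6, 38.6, 55.5 and 38.1 in old and 46.0, 35.5, 37.7, 27.0 and 27.3 in young males (adjusted p = 0.779). Ung, with 188, was at 26.7, 26.9, 30.0, 28.8 and 22.3 in old and 30.3, 31.1, 40.8, 18.6 and 25.6 in young males (adjusted p = 0.887). Their old values lay close together but for mouse 4 in Prim1, and the young values spread around them. Without old mouse 4 the log2 difference of Prim1 was 0.090 in place of 0.19, and that of Mcm5 0.070.

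The age effect was not shown to differ between the pools. The interaction over all 20 mice called 0 of 40 members by edgeR and 0 by DESeq2, where edgeR called 0.0225% of 8884 genes. At an unadjusted p under 0.05 each test had 1 member. Of all 8884 genes, 235 were positive and 214 negative at that limit by edgeR. That member was Cdc7 in the edgeR test (log2 difference of effects, female minus male, -0.91 ± 0.31, adjusted p = 0.886), on 89 male UMIs. The difference was negative for 34 of 40 members, with a median of -0.11, against 4399 of 8884 genes and a median of 0.0028. Over all settings and with each mouse left out, the median of the members ran from -0.26 to -0.05.

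Other genes of the pathway lay mostly on the same side of 0, again without calls. Of 50 further replication genes (origin recognition, cyclins, further polymerase subunits and fork factors), 41 were higher in old females and 33 of 36 tested were higher in old males, with medians of 0.07 and 0.23, and 0 were called in either pool by edgeR. At an unadjusted p under 0.05, 8 of 50 were higher and 1 was lower in old females, against 1046 higher and 1110 lower of 10386 genes. In males 6 of 36 were higher, against 5.61% of all genes. The lowest p in females was that of Clspn, the checkpoint mediator claspin, at 51.4 ± 3.55 CPM in old and 43.0 ± 4.32 in young mice (0.22 ± 0.07, adjusted p = 0.0715), followed by the histone chaperone gene Nasp (0.19 ± 0.06, adjusted p = 0.0869), Ccne1 (0.28 ± 0.09, 0.0966), Ccna2 (0.16 ± 0.05, 0.0974), Pold4 (-0.17 ± 0.06, 0.0992) and Gmnn (0.13 ± 0.05, 0.134). In males the lowest was that of Ccne1, the cyclin E1 gene, at 31.7 ± 6.65 in old and 15.7 ± 3.19 in young mice (0.92 ± 0.23, adjusted p = 0.185). Among the 20 mitosis genes, 20 were higher in old females and 19 of 19 in old males, against 48.7% and 51.3% of all genes. By edgeR 2 passed in females, namely Top2a (0.21 ± 0.05, adjusted p = 0.0417) and Ccnb1 (0.21 ± 0.06, adjusted p = 0.0477), where 2.4% of all genes were called higher.

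The shares of cells were then compared by mouse at matched depth. The share of cells with 3 or more members was 49.1%, 54.9%, 44.6%, 42.8% and 51.3% in old and 43.7%, 43.7%, 38.8%, 44.7% and 43.6% in young females. Old mice 1, 2 and 5 lay above every young mouse and old mice 3 and 4 lay at their level. The means were 48.6 ± 4.93% and 42.9 ± 2.34% (SD, n = 5 each), a difference of 5.69 points that was larger than the pooled SD of 3.86. Under 10 other settings the difference ran from 3.01 to 5.79 points, so the value given lies near the top of that range. The cells were classed by the same genes, which bounds what each class can hold, so more cells and more RNA per cell cannot be told apart here either. In such cells, members summed to 9.30 ± 0.43 UMIs per 2000 in old and 9.07 ± 0.16 in young mice, and in the other cells to 0.990 ± 0.050 and 1.001 ± 0.045. Cells with both replication and mitosis genes were 32.8 ± 3.89% of cells in old and 27.3 ± 1.61% in young females, whereas cells with replication genes and under 3 mitosis genes were 15.8 ± 2.02% and 15.6 ± 2.49%. No test was made of these sums over chosen genes. The old mice with the high shares were also those with the deepest cells before thinning (13572 to 15274 UMIs at the median, against 10201 and 10100 in old mice 3 and 4), and the part of depth in the shares was not tested beyond thinning.

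Member UMIs per 2000 were 5.10 ± 1.29 in old and 4.08 ± 0.51 in young males, and 4.55 ± 0.40 (n = 4) in old males without old mouse 4. In males the shares were 43.9%, 37.0%, 48.4%, 85.1% and 37.0% in old and 32.2%, 34.7%, 40.9%, 44.4% and 31.9% in young mice. Old mouse 4 was far above the rest, on 47 cells, and the other old mice overlapped the young. The means were 50.3 ± 20.05% and 36.8 ± 5.58%, a difference of 13.5 points that fell below the pooled SD of 14.7, and without old mouse 4 it was 4.78 points (41.6 ± 5.57%, n = 4). At 4000 UMIs per cell, which 755 of 1226 male cells reached, the difference was -0.874 points. Within cells with 3 or more members the sum was 9.30 ± 0.64 UMIs per 2000 in old and 9.51 ± 0.40 in young males. In the other cells it was 1.12 ± 0.25 in old and 0.916 ± 0.077 in young males. Old mouse 4 was at 1.57 there, and the other old males were at 0.971 to 1.04.

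**Figure D5:**
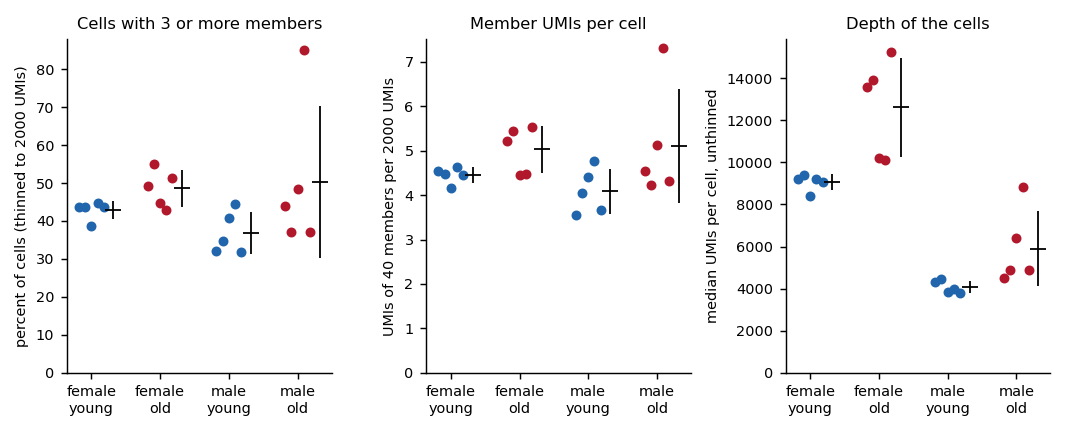
Percent of cells with 3 or more replication genes at 2000 UMIs, UMIs of the 40 genes per 2000 UMIs, and median UMIs per cell before thinning, for each mouse (blue young, red old), with mean ± SD in black (n = 5). Old male 4 is the single point at 85.1% in the left panel, and the old groups lie above the young in depth in both pools.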

How the data were processed

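The counts deposited by the authors were UMIs per gene or antibody and cell barcode, as whole numbers without normalization. Per the submitters' processing notes they came from 3′ libraries aligned with STAR 2.5.1 to mm10 and counted with Cell Ranger 4.0.0, while the file headers name Cell Ranger 3.1.0 (female) and 7.0.0 (male). Male barcodes as deposited held 0 cells with 5% or more mitochondrial UMIs, the female ones 534. Other columns, hashtag names among them, were labels.

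Cells with over 200 genes and under 5% mitochondrial UMIs were given to the mouse of their leading hashtag, and cells whose leading hashtag had under 3 times the next were left out (2274 female and 1 male). HTODemux of Seurat 5.3.0, the method of the study, was an alternative. It called 401 of 1227 male barcodes doublets, where 1 had an ambiguous hashtag by this ratio. Counts were summed per mouse and tested with edgeR 4.0.16 (TMM, filterByExpr, quasi-likelihood, Benjamini-Hochberg at 0.05) in R 4.3.3, with DESeq2 1.42.0 as the alternative, and the fits were tested on simulated data with known changes. Ratios of antibodies were compared by a two-sided exact sign-flip test over mice. Gene positions are those of GENCODE M21 (GRCm38) by Ensembl identifier, and 40 of 40 matched. For thinning, UMIs were drawn without replacement.

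The members and the gene lists were chosen with earlier results of these data known. Values in every mouse were given for members called or separated in a pool (there were 0) and for the member with the most UMIs of each role, and 3 more were added after their values were seen. Libraries are 1 per pool, so p-values measure the spread between mice of 1 experiment. Some genes that the rules would name are not reported here.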

Additional observations from a re-analysis of the deposited data

Results flagged for a closer look

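In 10 of 100 groups of 5 mice, 1 mouse lay far from the other 4 (its gap to the nearest was over 0.71 of the range). Chance flags about 1 in 20 such groups.

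Old male 4 did so for the share of cells with 3 or more replication genes (85.1%, others 37.0% to 48.4%), for member UMIs per 2000 (7.32, others 4.23 to 5.12) and for Prim1 (55.5 CPM, others 35.9 to 39.6). Its 47 cells at 2000 UMIs were the fewest of any mouse, and its neutrophil gene sum was the highest and its monocyte gene sum the lowest of the males. With cells holding 2 or more markers of another cell type left out, its share of cells was 83.7%, on 43 cells. The part of its few cells and of these sums in its values was not tested beyond that. Young female 3, the mouse with the fewest female cells, had the lowest female share of cells with 3 or more members (38.8%, others 43.6% to 44.7%).

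Among single genes, young female 2 stood out for Rfc4 (74.1 CPM, others 71.9 to 72.5), young male 2 for Rfc2 (159.9, others 125 to 133), young male 4 for Tyms (129.9, others 89.1 to 95.4) and young male 1 for Slbp (268, others 319.7 to 328). Among antibody ratios on the log2 scale, young female 4 stood out for CD11b (-0.73, others -0.60 to -0.55) and young female 1 for CD11c (-0.52, others -0.17 to -0.14).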

How the results depend on the processing

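The count of members called in females was 0, and 1 with DESeq2 or with no filter on low counts (Rrm2 in both). It was 0 under the other 7 settings and 0 to 2 when each mouse was left out in turn. In males and for the interaction it was 0 under all 9 settings and with every mouse left out. With HTODemux singlets the median log2 difference was 0.36 in males (15 of 34 members at an unadjusted p under 0.05), 0.088 in females (3 of 40, where the report has 9) and -0.26 for the interaction. The female count of 9 was 16 with doublets kept, 6 with thinned cells and 5 without cells holding other types' markers. The shares of all genes at an unadjusted p under 0.05 in these settings are not given here. The difference in the share of cells kept its sign in females under all 10 settings (3.01 to 5.79 points, 4.09 to 7.12 with each mouse left out). In males it was 10.5 to 15.7 points under 9 settings, 4.78 to 16.8 with each mouse left out, and -0.874 at 4000 UMIs. Of the 6 antibodies 6 passed under every setting but 1, the classes from unthinned counts, where 3 did and the CD11c log2 ratio was 0.14 in place of -0.31. The cause was not tested.

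Among 624 log2 differences of the 17 members checked singly, 13 changed sign. In females these were Rfc2 with doublets kept (0.030), thinned (0.072) or with each mouse left out (-0.022 to 0.013, above 0 without young mouse 3 or 4 or old mouse 3 or 4), Rpa3 with HTODemux (-0.0023), Slbp thinned (-0.028) and Ung with HTODemux (0.040), thinned (0.049) or with each mouse left out (-0.13 to 0.041, above 0 without young mouse 1). In males they were Mcm5 thinned (-0.020, from 0.13) and Ung, at -0.11, with each mouse left out (-0.22 to 0.028, above 0 without young mouse 3). The settings of at least 20 hashtag counts and of leaving out cells with other cell types' markers were chosen after seeing the data. Male sums limit genes of few UMIs, and 20 of 40 members did not pass the filter there once cells were thinned. The share of promoters with an E2F spelling was 38.2% with 8 letters and 70.6% with 7.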
